A study of Mus musculus with 8 samples.

Results

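ERVL-MaLR is the repeat class of the mammalian apparent long terminal repeat retrotransposons, and 5817 windows of the genome that carry this class are described here. They were chosen from a deposited table of 243007 rows of genomic windows as the rows whose repeat class reads exactly ERVL-MaLR and whose position is listed in 1 row only. The class has 5998 rows in all, and the 181 left out are positions listed a second time in the block of the other strand. All 5817 windows are 25 bases wide, with 2842 on the plus and 2975 on the minus strand. The injury libraries came from dissociated lumbar dorsal root ganglia, levels L4 to L6, of mice whose sciatic nerve had been crushed on 1 side 3 days earlier (4 libraries). The naive libraries came from the ganglia without a crush (4 libraries). The study took both kinds of ganglia from each of 4 mice, so every animal had been operated on, and the labels give no strain, age, sex or genotype. The question was how a crush alters alternative polyadenylation, the choice between several 3′ ends of a transcript. Libraries were made with QuantSeq 3′ mRNA-seq REV, a stranded kit that primes on the poly(A) tail and reads from the last bases of a transcript.

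MaLR elements are old, non-autonomous relatives of ERVL endogenous retroviruses, and most copies survive as single long terminal repeats (LTRs) that make no protein. An LTR ends the transcript of its own provirus, so it carries a polyadenylation signal, and host genes can use such a signal as their 3′ end. The hexamer AATAAA is the main polyadenylation signal and ATTAAA its commonest variant, and cleavage follows a short way downstream of either.

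The exon windows among the 8 with the most counts, and the exon windows called different between the groups, held such a signal or lay within 25 bases before one. The sequences below are from GENCODE vM21 transcripts on GRCm38, read 5′ to 3′ on the transcript strand, with the signal in capitals. Each is the window itself or up to 30 bases that overlap it and reach the signal, and all but the last come from the minus strand. The first 6 are exon windows among the 8 most abundant, and Gm38901 was called lower and Il31ra and Hhipl1 higher after the crush.
Acat2, chr17:12943049-12943078: aactggaactgacagtcaAATAAActcttt
Fopnl, chr16:14299250-14299274: tgtaagctgaAATAAAccttcttct
Kcns1, chr2:164163628-164163657: cctgggatatgtaagccaAATAAAcccttt
Slco1a4, chr6:141805451-141805480: tctggattcataagtcaaAATAAAtgccta
Cd2bp2, chr7:127191999-127192028: cttacattgtggtaatttAATAAAgcaccg
Pccb, chr9:100982045-100982074: tcaagattttgttatagtAATAAAagcgga
Gm38901, chr6:127873566-127873590: gtgagctgaAATAAAccctttgtct
Il31ra, chr13:112519905-112519929: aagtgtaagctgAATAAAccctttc
Hhipl1, chr12:108330831-108330860: ctagaggatgtaagtttaAATAAAcgcttt

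In these 9 sequences the signal lies 9 to 19 bases before the annotated end of the transcript. A further exon window at the end of Mrgpre, which encodes a Mas-related receptor of sensory neurons, was chosen after its values were seen for its likeness to them: Mrgpre, chr7:143778372-143778396: gaagtgtaagccaAATAAAgctttt. The run gtaagc before the signal is shared by Fopnl, Kcns1, Il31ra and Mrgpre. Other Cd2bp2 windows, which overlap the listed one and have the same counts, held or overlapped a different AATAAA. That signal lies 18 to 20 bases before annotated ends that are nearer to these windows.

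The signal was common in the class as a whole. Sequence could be read for 549 member windows that lie wholly in an exon on their strand, with 25 bases on either side where the transcript reached that far. AATAAA stood on the transcript strand in 54.1% of these, against 41.8% of 10877 such windows of all classes, and ATTAAA in 26.0% against 11.7%. Some other repeats carried it as often or more: AATAAA stood in 63.6% of ERVL, 55.3% of ERV1 and 81.1% of B2 windows. It was less common in L1 (52.2%), ERVK (34.5%) and Alu (18.1%) windows, and ATTAAA stood in 25% of ERV1 windows. On the other strand AATAAA stood in 3.28% of the member windows and ATTAAA in 1.64%. The letters GTAAGC, searched after they were seen in the sequences above, stood in 23.1% of the member windows and in 1.93% of all, and on the other strand in 0.546% and 0.432%. On the transcript strand they stood in 7.58% of ERVL, 2.53% of ERVK, 0% of ERV1 and 0.334% of L1 windows. The windows of all classes include the members. Of the 91 member windows with at least 80 counts over all libraries, 85.7% held AATAAA or ATTAAA, against 54.6% of 2687 windows of all classes with as many counts, 81.1% of 37 ERVL windows, 78.6% of 14 ERV1 windows and 94.6% of 483 B2 windows. A match is only a description of these letters, since the windows themselves were derived from reads at poly(A) tails, by steps not given in the sources used here.

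Most of the windows were silent in these ganglia. Of the 5817 members, 3381 (58.1%) had no count in any library, close to the 56.9% of all rows listed once, and 437 had at least 80 counts. The members held 410816 counts, of which 20.7% fell on a single window and 77.1% on the 100 windows with the most. Among the 437 windows, 142 had the same 8 counts as another member, which gave 45 shared sets of counts. Sums over windows are therefore not numbers of reads.

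Gene ends took most of the counts. Exon windows were 632 of 5817 and held 50.6% of the member counts, and the 231 of them in a 3′ untranslated region on the strand of the gene held 46.8%. Windows up to 5000 bases past the 3′ end of a gene were 770 and held 29.4%. The 2410 intron windows held 10.9%, and the 2005 windows elsewhere held 9.10%. Of the exon counts, 207183 lay on the strand of the gene and 640 on the opposite strand. The exon windows in the sense of a minus-strand gene held 196444 of these counts and those of plus-strand genes 10739. A single minus-strand window, in Acat2, held 84840 of them, which is only a part of this gap. Sense counts past gene ends were 61427 on the plus and 56293 on the minus strand, and in introns 15218 and 9981. The reason for the strand gap in exons was not tested, and the exon counts are mostly those of minus-strand genes. Of the 91 exon windows with sequence and at least 80 counts, 85.7% ended within 100 bases of an annotated transcript end, with a median distance of 14 bases, against 48.5% of such windows of all classes.

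The gene table held 16539644 to 28950551 counts in the injury libraries and 17459084 to 22092535 in the naive libraries. Its total is the library size used throughout, and CPM below means counts per 1000000 counts of that table. Where an adjusted p is given for a window or gene, it is that of edgeR's quasi-likelihood test with Benjamini-Hochberg adjustment over all features tested, with 0.05 as the threshold, and ± marks the SD over 4 libraries per group. Over all 13770 genes tested, 7.99% were higher and 11.5% lower after the crush. As a check of the tissue, 6 of 10 sensory neuron markers were lower after the crush, among them Isl1, Scn10a and Calca, and 1 was higher (Tubb3). The summed level of the 10 overlapped, with 15885 to 20015 CPM in injury and 16129 to 16602 CPM in naive libraries. Of 8 macrophage markers, 6 were higher, and their summed level was 33.7 to 52.3 CPM in injury against 8.16 to 15.6 CPM in naive libraries. Of 8 satellite glia and Schwann cell markers, 1 was higher (Glul), and of 6 fibroblast markers, 1 was higher (Apod). Among 5 neutrophil and lymphocyte markers that could be tested, 1 was lower (Ltf), with summed levels of 117 to 409 CPM in injury and 333 to 1207 CPM in naive libraries. The 6 markers of endothelial and mural cells, 3 of red cells and 1 of skeletal muscle that could be tested did not pass. The part of these cells in the results below was not tested.

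Summed over all 5817 windows, the counts did not differ beyond the spread of the libraries. Injury libraries 1 to 4 had 2232, 2367, 2546 and 2094 CPM, against 2363, 2724, 2412 and 2413 CPM in naive libraries 1 to 4. The groups overlapped, and the means were 2310 ± 193 CPM in injury and 2478 ± 165 CPM in naive (log2 difference -0.10, two-sided exact permutation test p = 0.286, adjusted over 5 sums 0.357). The Acat2 window alone made up a large share of these sums. Without it, a setting chosen after seeing the data, the injury libraries had 1669 to 1893 CPM and the naive libraries 1931 to 2135 CPM. The groups then no longer overlapped (log2 difference -0.17, exact p = 0.0286). Without the 10 windows with the most counts the sum did not pass (-0.14, exact p = 0.0571). The log2 difference of the whole sum was -0.025 with gene TMM factors, -0.053 without naive replicate 2, -0.057 without injury replicate 4 and -0.15 without injury replicate 3, and none of these passed (exact p = 0.8, 0.571, 0.571 and 0.0857).

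Outside exons the sums were lower after the crush. Intron windows summed to 242.6 ± 14.3 CPM in injury and 280.3 ± 7.53 CPM in naive (log2 difference -0.21). Windows past a gene's 3′ end summed to 654 ± 41.5 CPM in injury and 756 ± 44.9 CPM in naive (-0.21), and those elsewhere to 206 ± 12.8 CPM in injury and 230.3 ± 5.14 CPM in naive (-0.16). In each of these 3 the groups did not overlap, and the exact permutation test gave p = 0.0286, the smallest that 4 against 4 libraries allow (adjusted 0.0476). Exon windows summed to 1207 ± 139 CPM in injury and 1211 ± 115 CPM in naive, a log2 difference of -0.005 (exact p = 1) whose sign turned under other scalings. With TMM factors of the gene table (TMM corrects library sizes for a few dominant genes), the 3 sums outside exons were still lower, at log2 differences of -0.13, -0.13 and -0.09, but none passed (exact p = 0.0571 for introns, 0.143 past gene ends and 0.143 elsewhere). The sum past gene ends also missed the threshold without the 10 member windows with the most counts (-0.15, exact p = 0.0571) and without naive replicate 2 (-0.17, exact p = 0.0571), and the intron sum missed it without any 1 naive library (-0.23 to -0.20, exact p = 0.0571 each).

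**Figure D1:**
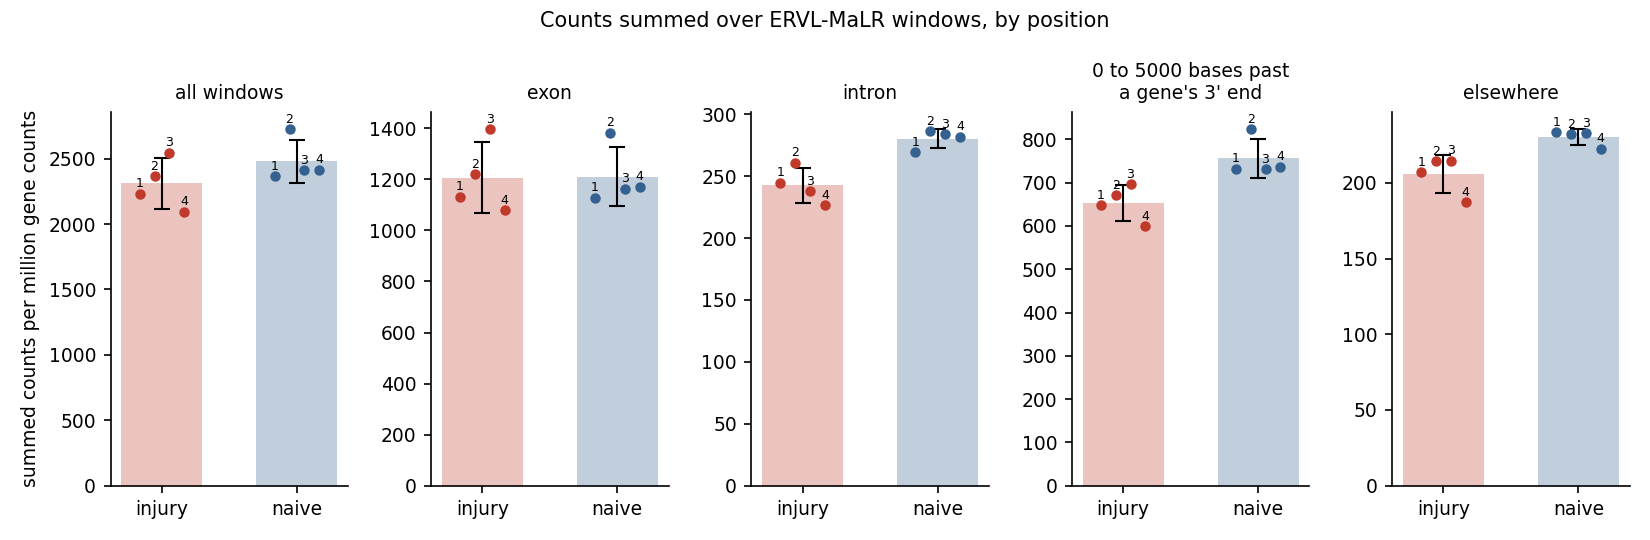
Counts of ERVL-MaLR windows summed in each library, in CPM (y axis, from 0), for all windows and by position. Bars are group means, error bars the SD over 4 libraries, and numbered points the libraries. In the intron, past-gene and elsewhere panels every injury point lies below every naive point, while the exon panel overlaps.

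The share of the class beside related repeats did not shift beyond the spread of the libraries. Member counts were 32.7% ± 1.83 of the counts at ERVK, ERV1 and ERVL windows in injury and 32.3% ± 1.76 in naive (mean log2 difference 0.02, exact permutation p = 0.8). They were 16.2% ± 3.94 of the counts at L1 windows, which carry the main autonomous LINE family, in injury and 17.6% ± 4.03 in naive (-0.13, exact p = 0.571). Both gave an adjusted p of 0.8 over the 2 exact tests.

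Single windows were tested in 1 fit over 33851 rows of the table, among which 427 members in 382 loci passed the filter on low counts. After the crush 15 members were higher, 3.51% of those tested, and 35 were lower, 8.20%. Of the 15, 5 had at most 3 naive counts in all and passed the filter only through the injury libraries. The same holds for those at chr1:150496863-150496888, chr17:22838884-22838909, chr19:29156753-29156778, chr12:108331121-108331146 and in an intron of Piezo2, which had more naive counts. Some lower windows, among them that in an intron of Grik1, passed only through the naive libraries. All these calls are no test of a difference. Of all rows tested, 36.4% were higher and 2.7% lower, and of rows other than the abundant short repeats B2 and Alu, 7.2% were higher and 7.05% lower. Beside the rows other than B2 and Alu, the member share was near the background for lower windows and smaller for higher ones. The median log2 fold change was -0.12 over the members, 0.72 over all rows and -0.08 without B2 and Alu. Because windows share counts, the 35 lower windows hold 27 different sets of counts and the 15 higher ones 13. Some of the 27 sets differ by very few counts, so they are not 27 separate signals. With TMM factors computed over the windows themselves, which takes the median of all rows to 0.15, 9 members were higher and 94 lower. Without injury replicate 1, 13 members were higher and 19 lower.

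Related classes had more lower than higher windows too. ERVK windows were higher in 2.95% and lower in 5.03% of 577 tested, ERV1 in 1.94% and 18.4% of 103, ERVL in 1.35% and 12.2% of 74, and L1 in 3.19% and 9.15% of 470. The differences between these shares were not tested. Within the members, 2 exon windows were higher and 4 lower of 93 tested, and 1 intron window was higher and 9 lower of 101. Past gene ends 5 were higher and 15 lower of 160, and elsewhere 7 were higher and 7 lower of 73. Higher windows in both places include those with at most 3 naive counts and others that passed the filter only through the injury libraries. The higher intron window passed it so too. Of the 56 tested windows antisense to a gene, the 6 that passed were lower, beside 35 lower of all 427 members tested. Those in introns of Rasgef1a, BC067074 and Zfp972 (chr2:177908347-177908372) had the same or nearly the same counts as windows sense to other genes. Their reads therefore cannot be assigned to the antisense place.

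**Figure D2:**
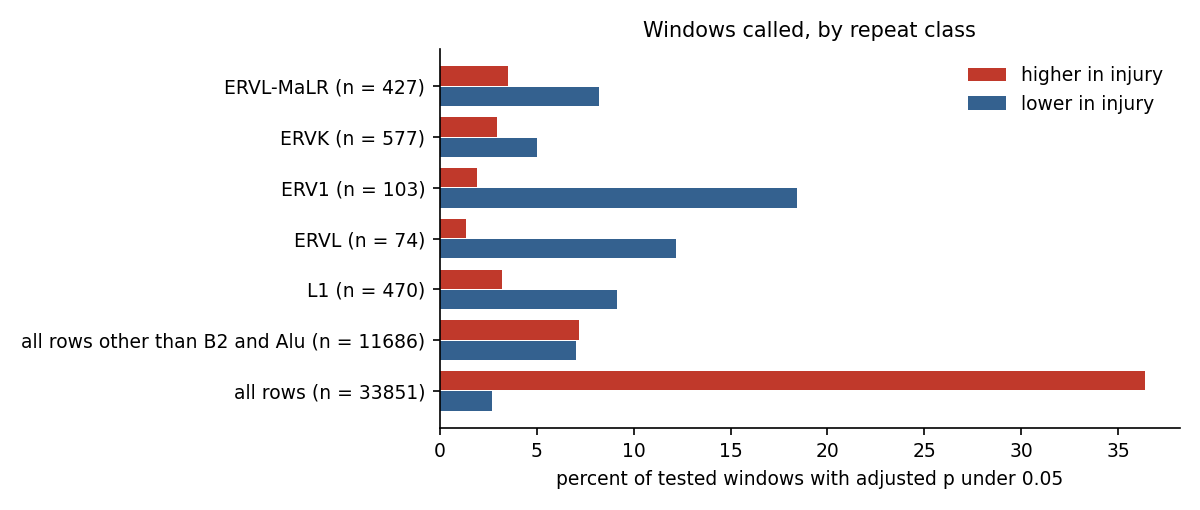
Percent of tested windows with an adjusted p under 0.05 (x axis), higher (red) or lower (blue) in injury than in naive, for ERVL-MaLR, 4 related repeat classes, all rows without B2 and Alu, and all rows. For ERVL-MaLR the bars are 3.51% higher and 8.20% lower. The higher bar includes 5 windows with at most 3 naive counts, which passed the filter only through the injury libraries. It also includes windows with more naive counts that passed so, and the lower bar includes windows that passed only through the naive libraries.

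Acat2 encodes a cytosolic thiolase that joins acetyl-CoA units at the start of sterol synthesis, and its 3′ untranslated region holds the window with the most counts of the class. This window had 477, 529, 653 and 425 CPM in injury libraries 1 to 4, against 433, 589, 428 and 393 CPM in naive libraries 1 to 4. The groups overlapped, with injury library 3 the highest of all 8 (log2 fold change 0.18, SE 0.16, adjusted p = 0.428). The window held 99.8% of the Acat2 gene counts in injury and 99.7% in naive. The sign of its change turned to -0.37 with TMM factors over the windows.

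Other abundant exon windows did not pass the test either. Fopnl encodes a protein of centrioles and cilia, and its window had 61.7 ± 6.65 CPM in injury and 64.6 ± 5.36 CPM in naive (log2 fold change -0.06, adjusted p = 0.713). Slco1a4 encodes an organic anion transporter, and its window had 45.4 ± 5.18 CPM in injury and 45.6 ± 5.79 CPM in naive (-0.01, adjusted p = 0.98). The signs of the Fopnl and Slco1a4 changes turned under other scalings. Cd2bp2 encodes a protein that binds the CD2 tail and the U5 snRNP. Its 4 overlapping windows had the same counts, and each had 43.2 ± 2.34 CPM in injury and 46.8 ± 5.64 CPM in naive (-0.12, adjusted p = 0.501). Pccb encodes the beta subunit of propionyl-CoA carboxylase, and its window had 37.8 ± 2.06 CPM in injury and 43.2 ± 5.59 CPM in naive (-0.19, adjusted p = 0.271). The windows held 98.6% of Fopnl, 91.1% of Slco1a4, 77.7% of Cd2bp2 and 89.7% of Pccb gene counts. With TMM factors over the windows, those of Fopnl, Slco1a4, Cd2bp2 and Pccb passed as lower (adjusted p = 0.00793, 0.0151, 0.00223 and 0.0015).

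Mrgprd encodes a Mas-related receptor that marks non-peptidergic nociceptors, and a plus-strand window 2080 bases past its annotated end (chr7:145326165-145326190) was the second most abundant member. It had 67.7, 59.5, 55.4 and 51.0 CPM in injury libraries 1 to 4, against 115, 135, 114 and 109 CPM in naive libraries 1 to 4. Every injury library lay below every naive library (log2 fold change -1.01, SE 0.13, adjusted p = 1.44e-04). The Mrgprd gene had 48.8 ± 2.84 CPM in injury and 89.9 ± 7.50 CPM in naive (-0.88, adjusted p = 4.01e-05). The window had 14895 counts and the gene 11650, so the window's count was 128% of the gene's. For windows past a gene's end such a percentage is a ratio of 2 counts and not a share. In ganglia measured in bulk, fewer cells of a type and less RNA per cell cannot be told apart.

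Kcns1 encodes a silent potassium channel subunit that modulates Kv2 channels, and its 3′ untranslated window was lower after the crush. It had 27.9, 28.4, 55.2 and 35.01 CPM in injury libraries 1 to 4, against 50.4, 62.2, 70.2 and 61.1 CPM in naive libraries 1 to 4. Injury library 3 lay above naive library 1, so the groups overlapped, although each same-numbered pair was lower in injury (log2 fold change -0.73, SE 0.22, adjusted p = 0.0221). The window held 97.3% of the gene's counts, and the gene changed by -0.75 (adjusted p = 0.0158). The window's call was lost without naive replicate 3 or without injury replicate 1, 2 or 4, with an adjusted p of up to 0.0631, and the gene's without naive replicate 3 (adjusted p = 0.0558).

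Gfra3 encodes the receptor subunit for artemin, a growth factor of the GDNF family, and a window 1476 bases past its end on the minus strand of chromosome 18 was also among the most abundant. It had 73.2, 66.9, 70.1 and 56.6 CPM in injury libraries 1 to 4, against 51.6, 69.9, 41.1 and 45.9 CPM in naive libraries 1 to 4. Naive library 2 lay within the range of the injury libraries, and the window did not pass (log2 fold change 0.36, SE 0.17, adjusted p = 0.129). Without naive replicate 2 it passed as higher (0.53, adjusted p = 0.0205), and with TMM factors over the windows its sign turned to -0.20. The Gfra3 gene rose to 61.9 ± 6.15 CPM in injury, against 35.3 ± 3.06 CPM in naive (0.81, adjusted p = 2.24e-04). The window's count was 121% of the gene's, and the difference between window and gene was not tested.

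**Figure D3:**
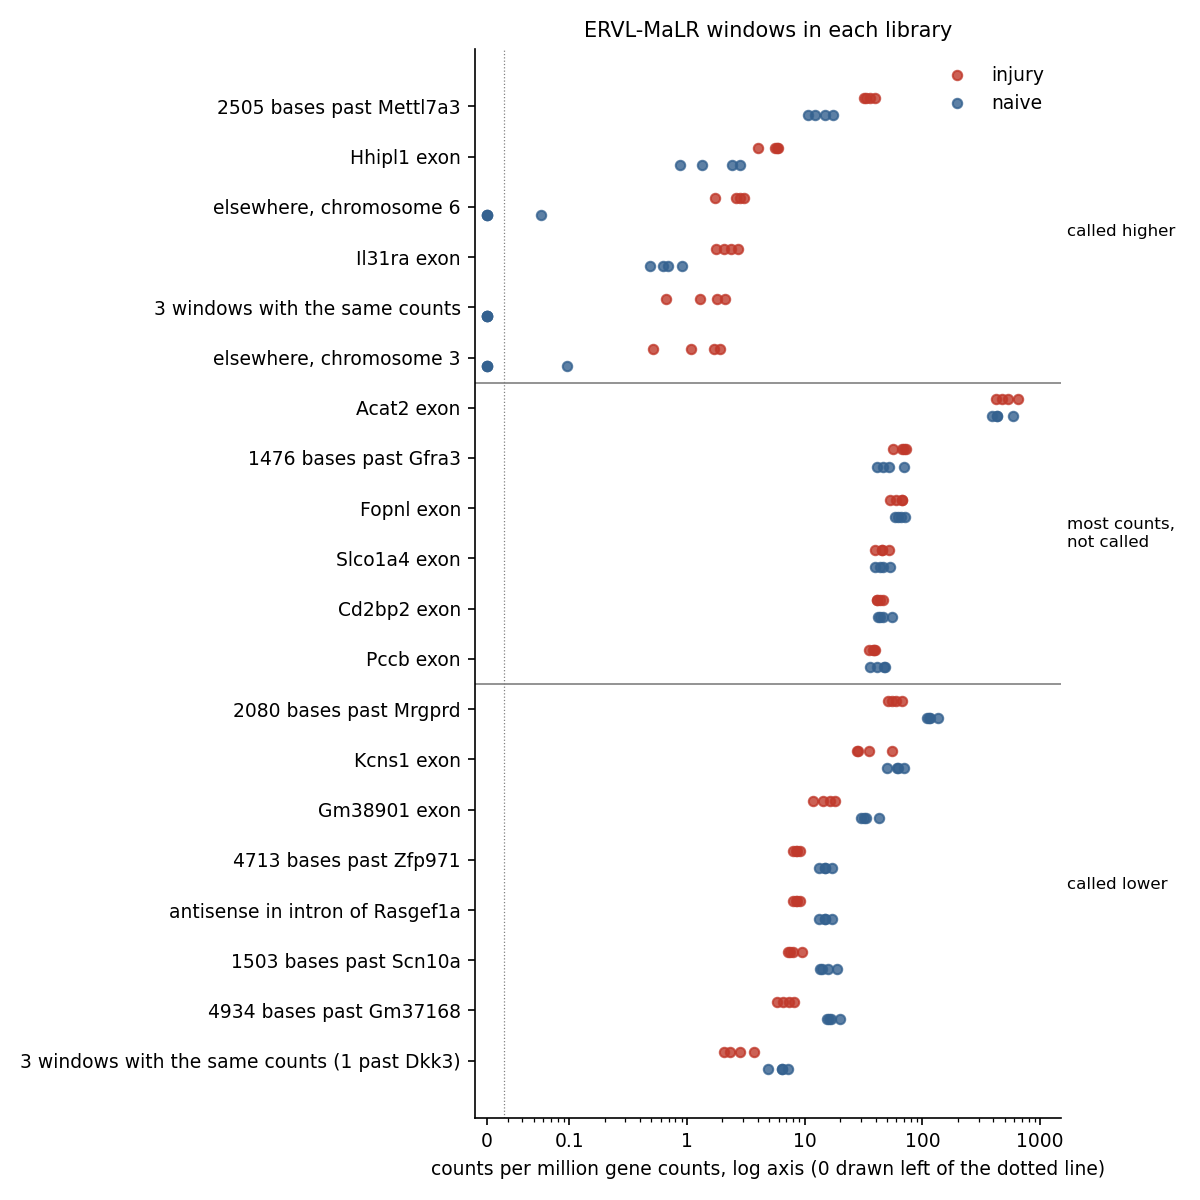
CPM of the named ERVL-MaLR windows in each library on a log axis, with injury points above naive points in each row and windows with the same counts drawn once. Rows run from windows called higher, over abundant windows that were not called, to windows called lower. Called rows were picked by a test on these same libraries, so the separation of their points is no further test. Rows with at most 3 naive counts also passed the filter only through the injury libraries.

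Among windows that were higher after the crush, the most abundant lay 2505 bases past Mettl7a3 (chr15:100342879-100342904, plus strand), a gene of the methyltransferase-like 7A family. It had 32.9, 39.9, 35.7 and 31.7 CPM in injury libraries 1 to 4, against 14.9, 17.4, 10.6 and 12.3 CPM in naive libraries 1 to 4. The groups did not overlap (log2 fold change 1.35, SE 0.18, adjusted p = 1.95e-04). The Mettl7a3 gene rose likewise, to 33.6 ± 1.15 CPM in injury, against 12.6 ± 1.24 CPM in naive (1.41, adjusted p = 4.14e-06), and the window's count was 107% of the gene's.

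Il31ra encodes a subunit of the receptor for interleukin 31, a cytokine of itch. Its 3′ untranslated window had 1.76, 2.69, 2.37 and 2.06 CPM in injury libraries 1 to 4, against 0.482, 0.628, 0.687 and 0.905 CPM in naive libraries 1 to 4. The groups did not overlap (log2 fold change 1.71, SE 0.34, adjusted p = 0.0025), and the gene rose by 1.01 on the log2 scale (adjusted p = 2.29e-04). The window took 8.72% ± 1.59 of the gene's counts in injury and 5.28% ± 1.03 in naive. This share was compared by an exact permutation test for 52 exon windows, and Il31ra gave p = 0.0286, which did not pass after adjustment over the 52 (0.743). None of the 52 shares passed, as 4 against 4 libraries cannot give a p under 0.0286 and a few such values among 52 cannot pass. The only other share with an exact p under 0.05 before adjustment was that in Dirc2, with 1.37% ± 0.23 in injury and 2.96% ± 1.08 in naive.

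Hhipl1 encodes a secreted protein related to the hedgehog-interacting protein. Its window had 5.79, 5.94, 5.62 and 3.99 CPM in injury libraries 1 to 4, against 0.868, 1.35, 2.41 and 2.81 CPM in naive libraries 1 to 4, again with no overlap (log2 fold change 1.52, SE 0.36, adjusted p = 0.00681). The gene table gave Hhipl1 0.0214 ± 0.0429 CPM in injury and no count in naive, so the window's counts were not part of the gene's. The Il31ra and Hhipl1 calls were lost when naive replicate 2 and injury replicates 2 and 3 were left out together (adjusted p = 0.0529 and 0.0662).

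Of the 15 higher windows, 5 had at most 3 counts in the naive libraries together. They passed the filter on low counts only through the injury libraries, so their values are given without a test. They remain in the counts and shares of higher windows above. A window on chromosome 6 (chr6:145973861-145973886, minus strand) had 66, 50, 66 and 43 counts in injury libraries 1 to 4 and a single count in all naive libraries, in naive library 3. The ratio of the CPM over the groups was 202, with a counting interval of 35.8 to 8004 (95%). A window on chromosome 3 (chr3:103368527-103368552, minus strand) had 40, 55, 11 and 18 counts in injury libraries 1 to 4 and 2 counts in naive library 1 alone, a ratio of 55.6 with a counting interval of 15.1 to 464. These intervals cover counting error only. At both windows every injury library lay above every naive library. As the filter let them in through their injury counts, this is no test of a difference.

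A set of 3 plus-strand windows had the same counts in every library, 42, 61, 28 and 11 in injury libraries 1 to 4 and none in naive libraries. One lies on chromosome 4 (chr4:132811965-132811990) and 2 on chromosome 18, 1 of them 228 bases past the microRNA gene Mir6358, which had no count in the gene table. Against a floor of 3 counts over the naive group, their level was at least 42.4-fold higher in injury. Counts that are equal in all 8 libraries at distant places cannot be assigned to 1 of them, so this is 1 signal and not 3.

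Among the windows called lower was one past another gene of nociceptors. Scn10a encodes the sodium channel Nav1.8 of nociceptors, and a window 1503 bases past its end (chr9:119606928-119606953, minus strand) had 9.56, 7.56, 7.90 and 7.26 CPM in injury libraries 1 to 4, against 19.0, 15.9, 13.5 and 13.9 CPM in naive libraries 1 to 4. The groups did not overlap (log2 fold change -0.95, SE 0.18, adjusted p = 0.00202). The gene, far more abundant at 501 ± 26.0 CPM in injury and 819 ± 92.7 CPM in naive, changed by -0.71 (adjusted p = 1.54e-04), and the window's counts amounted to 1.79% of the gene's.

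The exon of the long noncoding transcript Gm38901, whose sequence is given above, had 18.1, 14.2, 16.4 and 11.7 CPM in injury libraries 1 to 4, against 32.0, 42.7, 33.2 and 30.01 CPM in naive libraries 1 to 4. All injury libraries were lower (log2 fold change -1.19, SE 0.18, adjusted p = 4.45e-04). A window 4934 bases past the transcript Gm37168 (chr1:191293647-191293672, plus strand) had 7.42, 5.80, 6.55 and 8.16 CPM in injury libraries 1 to 4, against 16.3, 19.9, 15.6 and 16.7 CPM in naive libraries 1 to 4. It too showed no overlap (-1.30, SE 0.18, adjusted p = 2.44e-04).

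Other lower windows shared their counts. A window antisense to an intron of Rasgef1a, which encodes a Ras exchange factor (chr6:118039258-118039283, minus strand), had 8.55 ± 0.463 CPM in injury and 15.1 ± 1.54 CPM in naive (log2 fold change -0.82, adjusted p = 0.00206). A window on chromosome 2 that lies 4713 bases past the zinc finger gene Zfp971 (chr2:178038734-178038759, plus strand) had 8.57 ± 0.467 CPM in injury and 15.1 ± 1.56 CPM in naive (-0.81, adjusted p = 0.00212), and differed from it by at most 2 counts in any library. A window 1116 bases past Dkk3, a secreted protein of the Dickkopf family, had 2.72 ± 0.731 CPM in injury and 6.25 ± 1.02 CPM in naive (-1.20, adjusted p = 0.00372). Windows in an intron of BC067074 on its antisense strand and past Gm29823 had exactly the same counts. A called window on chromosome 10 (chr10:115940125-115940150, minus strand) had 55 counts in injury library 1 against 54, and the same counts otherwise. Which of these places gave rise to the reads cannot be told. The Dkk3 gene changed by -0.83 (adjusted p = 2.26e-04).

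For windows on the strand of a gene that was tested itself, the change of the window went with that of the gene where the window lay in an exon or past the gene's end. With 1 window per locus this gave 133 windows and 118 genes. Across windows, Pearson's r of the log2 fold changes was 0.70 for 55 exon windows (Spearman's rho 0.60) and 0.72 for 49 windows past a gene (0.69), and 0.27 for 29 intron windows (0.21). These are descriptions, since window and gene share libraries and scaling, and for exon windows the reads. Of 13 called windows, 11 lay on a called gene and 10 of these changed in the direction of the gene. Of all 133 windows, called or not, 25 lay on a called gene and 22 of these changed in its direction. The 13 include the windows past Dkk3 and Zfp971, whose reads cannot be assigned to these places.

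The windows past Bnip3, Azin2 and Abca6 and in introns of Piezo2 and Grik1 were chosen after their values were seen. A window 1842 bases past Bnip3, which encodes a mitophagy receptor, had 17.97 ± 2.41 CPM in injury and 28.3 ± 4.72 CPM in naive (log2 fold change -0.66, adjusted p = 0.00955), beside -0.72 for the gene. A window 1700 bases past Azin2, an antizyme inhibitor gene of polyamine metabolism, had 6.33 ± 1.42 CPM in injury and 3.80 ± 0.787 CPM in naive (0.73, adjusted p = 0.0374), beside 0.78 for the gene. A window 2901 bases past Abca6, an ABC transporter gene, had 18.9 ± 5.99 CPM in injury and 29.7 ± 3.27 CPM in naive (-0.65, adjusted p = 0.0307), beside -1.18 for the gene, and its count was 282% of the gene's. The Azin2 call was lost without naive replicate 1, 3 or 4, without injury replicate 2 or 4, without a filter on low counts and with TMM over the windows. It was also lost without naive replicate 2 and injury replicates 2 and 3 together (adjusted p = 0.0555). The Abca6 call was lost when any 1 library other than injury replicate 3 was left out, without a filter, with gene TMM factors and with DESeq2.

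An intron window that passed the filter on low counts only through the injury libraries was the exception to the shared direction. Piezo2 encodes a mechanically gated channel of touch neurons, and a window in 1 of its introns had 36, 60, 37 and 19 counts in injury libraries 1 to 4, against 2, 8, 5 and 17 in naive libraries 1 to 4. Injury library 4 and naive library 4 were close in counts. The window had 1.62 ± 0.384 CPM in injury and 0.385 ± 0.283 CPM in naive (log2 fold change 2.05). As the filter let it in through its injury counts, these values are given without a test. The Piezo2 gene changed by -0.33 (adjusted p = 0.0145), and the window's counts were 0.27% of the gene's. An intron window of Grik1, a kainate receptor subunit gene, had 0.277 ± 0.0422 CPM in injury and 1.00 ± 0.524 CPM in naive (-1.83), beside -0.91 for the gene. It passed the filter only through the naive libraries, so its values too are given without a test. Both windows remain among the called windows counted above. The Piezo2 call was lost with TMM over the windows and without naive replicate 2 and injury replicates 2 and 3 together. The Grik1 call was lost without these libraries together too (adjusted p = 0.17), without naive replicate 2 alone and with a replicate block (adjusted p = 0.0576). The Piezo2 gene did not pass with gene TMM factors (-0.25, adjusted p = 0.057).

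**Figure D4:**
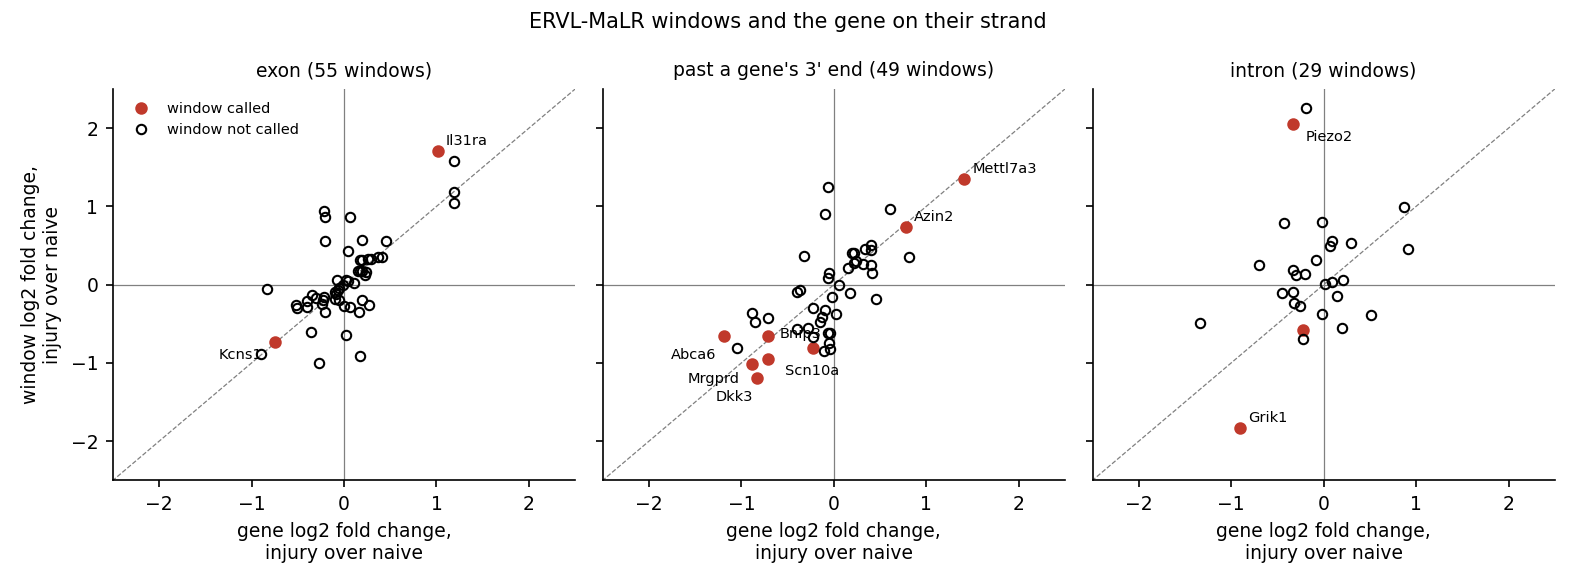
Log2 fold change (injury over naive) of ERVL-MaLR windows (y axis) against that of the gene on their strand (x axis), with 1 window per locus, for 55 exon windows, 49 windows past a gene's 3′ end and 29 intron windows. Filled points are called windows, the dashed line marks equal change, and among the called points with a called gene the Piezo2 intron window alone changed against its gene. The Piezo2 window passed the filter on low counts only through the injury libraries, and the Grik1 window only through the naive libraries. Reads of the window past Dkk3 cannot be assigned to that place.

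Several LTR windows had counts close to those of their gene or above them. The window's count was at least 50% of the gene's for 28 of the 55 exon windows and 16 of the 49 windows past a gene's end. It was above the gene's for 4 and 8 of these. Besides Mrgprd, Gfra3, Mettl7a3 and Abca6, a window past Alpk1, a kinase gene of innate immunity chosen after its values were seen, had a count of 402% of the gene's. Its log2 fold change was 0.15, beside 0.42 for Alpk1, and neither passed (adjusted p = 0.536 and 0.334). The window past Zfp971, named Etohi1 among the genes, had a count of 1362% of the gene's. It changed by -0.81, beside -0.23 for the gene (adjusted p = 0.819). Its counts were nearly those of the Rasgef1a window, so they cannot be assigned to this place.

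Genes whose products silence endogenous retroviruses were measured in the same libraries. Of 28 such genes, 26 were tested, and the 2 that passed were lower, a share no greater than the 11.5% of all genes. The median log2 fold change of the 26 was -0.11. Hells, a chromatin remodeller needed for DNA methylation of repeats, had 10.7 ± 3.79 CPM in injury and 19.7 ± 1.88 CPM in naive (log2 fold change -0.89, adjusted p = 0.0137). Cbx5, the heterochromatin protein HP1 alpha, had 118.9 ± 3.70 CPM in injury and 141.6 ± 11.5 CPM in naive (-0.25, adjusted p = 0.044). Trim28, the corepressor that zinc finger proteins bring to retroviral sequences, had 56.8 ± 8.24 CPM in injury and 55.1 ± 4.25 CPM in naive (0.05, adjusted p = 0.819), and Setdb1, its histone methyltransferase partner, had 12.9 ± 6.76 CPM in injury and 13.2 ± 1.20 CPM in naive (-0.05, adjusted p = 0.934).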

How the data were processed

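Mouse dorsal root ganglion RNA was sequenced from its poly(A) end in 8 libraries. The tools that the submitters' processing notes list are bcl2fastq 2.17, STAR and HTSeq, the last 2 without a version, and the builds are GRCm38 and mm10. The authors deposited whole-number read counts per gene (24060 rows) and per genomic window (243007 rows), not normalized. Date-like names replace gene symbols in 27 gene rows, which hold 0.133% to 0.164% of a library's counts and stayed in the totals. The choice of windows, the counting of multiply mapped reads and the numbering of positions (from 0 or from 1) are not stated by any label or header, and sequences were read as if starts count from 0.

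Positions were taken from GENCODE vM21 (exon first, then intron, then up to 5000 bases past a gene's 3′ end, then elsewhere). All rows passing filterByExpr were fitted with edgeR 4.0.16 (quasi-likelihood, group only, library size the gene-table total without TMM) in R 4.3.3, genes likewise; DESeq2 1.42.0 was an alternative. The fit was also run on simulated counts with independent rows, the same spread for every row and few changed rows. That run does not cover windows that share counts or the many rows called here. Other alternatives were other scalings and filters, merging of overlapping windows, a replicate block and leaving out libraries. Sums per library were compared by two-sided exact permutation tests in Python 3.11.15. No label says whether replicates share a culture or a mouse, so p-values measure the spread between these libraries. Depth limits windows with few counts, and counting intervals are exact at 95%.

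The members, gene lists and tests were chosen with earlier results of these data known. Windows named are the 8 with the most counts and the 8 called higher and 8 called lower with the smallest p, 1 per run of windows within 1000 bases; genes named are those at these windows and up to 4 silencing genes past the test. Trim28, Setdb1 and other exceptions were chosen after their values were seen. Marker lists cover sensory neurons, satellite glia and Schwann cells, macrophages, neutrophils and lymphocytes, fibroblasts, endothelial and mural cells, red cells and skeletal muscle.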

Additional observations from a re-analysis of the deposited data

Results flagged for a closer look

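In 60 groups of 4 libraries examined, 7 had 1 library far from the other 3. Chance alone marks about 1 group in 20 where groups are independent and normally spread. Here sums contain one another, windows share counts and some groups are mostly zeros, so the 7 cannot be set against that rate. The measure is the gap to the nearest library as a share of the group's range. Naive library 2 stood apart in the sum over all windows (2724 CPM against 2363 to 2413 CPM in the other naive libraries, gap 0.863), in the sum past gene ends (823 against 731 to 737 CPM, gap 0.930) and in the log2 ratio of members to L1 windows (-2.08 against -2.74 to -2.63, gap 0.830). Naive library 4 was the lowest in the sum elsewhere (222.6 against 232.1 to 233.5 CPM, gap 0.876).

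At single windows, naive library 3 alone had a count at the chromosome 6 window (0.0573 CPM, gap 1), and naive library 1 alone had counts at the chromosome 3 window (0.0964 CPM, gap 1). Injury library 4 was the lowest at the Hhipl1 window (3.99 CPM against 5.62 to 5.94 CPM in the other injury libraries, gap 0.836).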

How the results depend on the processing

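Without the Acat2 window, a setting added after seeing the data, the sum over all windows was -0.17 and passed, while without the 10 top windows it was -0.14 and did not. The exon sum turned to log2 differences of 0.071 with gene TMM factors, 0.000279 without Rn45s and 0.0073 with overlapping windows merged, and ran from -0.082 to 0.064 with 1 library left out. With gene TMM factors the sums in introns, past gene ends and elsewhere were -0.13, -0.13 and -0.085 and missed the threshold, as did the sum past gene ends without the 10 top windows (-0.15). With 1 library left out, the intron sum ran from -0.24 to -0.18, the sum past gene ends from -0.24 to -0.17, the ratio to ERVK, ERV1 and ERVL from -0.021 to 0.049 and the ratio to L1 from -0.24 to 0.019; without the 10 top windows of each class the ratio to L1 was 0.18. Members higher and lower were 9 and 94 with TMM over the windows, 30 and 25 without a filter, 8 and 25 at a mean of at least 20 counts, 11 and 22 without naive 2, injury 2 and injury 3, and 40 and 34 with DESeq2. With 1 library left out, 11 to 18 were higher and 19 to 30 lower. Of the 35 lower windows, 35 kept their call with TMM over the windows and 32 with DESeq2; of the 15 higher ones, 9 and 15 did.

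Signs turned at the Acat2 window and the one past Gfra3 with TMM over the windows (-0.37 and -0.20), at the Fopnl window with gene TMM factors (0.012) and DESeq2 (0.021), and at the Slco1a4 window with gene TMM factors (0.071), without Rn45s (0.000207) and with DESeq2 (0.078), and from -0.077 to 0.075 with 1 library left out. With gene TMM factors the Fopnl and Slco1a4 genes turned to 0.013 and 0.065, and Slco1a4 ran from -0.099 to 0.095 with 1 library left out.

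No label says that a replicate number marks a mouse, so same-numbered libraries were not treated as paired, and their deviations correlated at 0.13, 0.22, 0.05 and 0.17, and the injury library matched its own number best in pairs 1, 2 and 4 but not in pair 3. With a replicate block, 14 members were higher and 30 lower, and the sums in introns (-0.21), past gene ends (-0.21) and elsewhere (-0.16) gave an exact p of 0.125, the smallest that 4 pairs allow.

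The cause of these shifts was not tested. Depth limits the test to 427 of the 2436 members with a count, and counts shared between windows reduce the number of independent signals.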

Other observations

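The end of chromosome 2 that holds Zfp971 and Zfp972, zinc finger genes by name, has several called members, which were chosen after their values were seen. At 6 windows past predicted genes there, among them Gm14405 and Gm14421, the counts were the same, 3, 19, 3 and 7 in injury libraries 1 to 4, against 32, 25, 20 and 22 in naive libraries 1 to 4. The log2 fold change was -1.83 (SE 0.56), and the call was lost without naive replicate 1 or without injury replicate 1 or 3. These windows passed the filter on low counts only through the naive libraries, so their values are given without a test. A window on the antisense strand of an intron of Zfp972 had 12.1 ± 1.59 CPM in injury and 18.9 ± 2.55 CPM in naive (SD, n = 4 each), with a log2 fold change of -0.64 (edgeR adjusted p = 0.0108). This call was kept under every alternative that was run.

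An exon window of the predicted transcript Gm567 had 1.37, 1.14, 1.67 and 1.81 CPM in injury libraries 1 to 4, against 4.05, 4.49, 3.67 and 2.58 CPM in naive libraries 1 to 4. The groups did not overlap (log2 fold change -1.31, edgeR adjusted p = 0.00448). A window 1141 bases past Gm4869 had 1.72, 3.11, 5.30 and 1.39 CPM in injury libraries 1 to 4, against 0.723, 0.580, 0.745 and 0.996 CPM in naive libraries 1 to 4. It was higher after the crush (1.91, edgeR adjusted p = 0.00747), with injury libraries 2 and 3 the highest. Both calls were lost when naive replicate 2 and injury replicates 2 and 3 were left out together (edgeR adjusted p = 0.0522 and 0.189).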
